A study of Rattus norvegicus with 30 samples.

Results

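The response of the brain to valproate (VPA) was examined in rat pups of the NEC strain (Non-Epileptic Controls), the inbred, seizure-free counterpart of GAERS (Genetic Absence Epilepsy Rats from Strasbourg). All libraries labelled NEC were taken, which are 15 of the 30 libraries of the study: 7 from pups exposed to VPA and 8 from non-exposed pups. The remaining 15 libraries come from GAERS pups, exposed or not, and were used to ask whether the response differed between strains and in an alternative fit of the NEC comparison on all 30 libraries. Each library holds RNA from brain tissue of 1 pup. The labels give strain and exposure, but no brain region, age, sex, litter, dose, route or time of exposure. Nothing in them says which pups had the same dam, so p-values measure the spread between these libraries, and an effect of exposure and a difference between litters cannot be told apart.

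Valproate is an antiseizure and mood-stabilising drug. It raises GABA levels and inhibits class I histone deacetylases, the enzymes that remove acetyl groups from histones and so keep chromatin in a less active state. Exposure in the womb is a known cause of birth defects and of later deficits in cognition and social behaviour. GAERS rats develop spontaneous absence seizures, and NEC rats were bred in parallel to be free of them, so exposure in NEC is the comparison without the epilepsy.

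The files identify genes only by rat Ensembl identifiers, and 0 of the 32586 could be paired with a symbol through the reference tables at hand. The changed genes are therefore described by number, size, level and behaviour across pups, and 2 identifiers are named in each direction. Brain functions and cell types of the changed genes were not determined, and the brain label was not checked against cell markers. In tissue RNA, fewer cells of a type and less RNA per cell cannot be told apart.

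Depth was similar in both groups. Totals ran from 30713506 to 56568656 counts per library in controls and from 26963266 to 37862679 in exposed pups, a difference of means within the spread between libraries (p = 0.467, two-sided exact permutation over 8 and 7 libraries). One control library, NEC control 3, stood apart. The median correlation of its log2 CPM (CPM, each count relative to the scaled total of its library) with the other controls was 0.974, against 0.990 to 0.994 for the other 7 controls. It held the highest or lowest value of all 15 libraries in 59.7% of tested genes, while the other controls did so in 3.75% to 18.4%. The main counts of called genes are therefore given with and without it, and some counts by set and by level only with it.

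A large part of the NEC transcriptome differed by small amounts between exposed and control pups. Of 15452 genes with enough counts to test, 3504 differed between exposed and control pups (22.7%). Of these, 1689 were higher (10.9% of tested genes) and 1815 lower (11.7%) in exposed pups. Genes were called by edgeR's quasi-likelihood test at a Benjamini-Hochberg adjusted p under 0.05. Called genes changed by a median of 0.29 in log2 units (1.22-fold), and the median was larger for genes that fell (0.33) than for genes that rose (0.25). Called genes that changed by over 0.5 on the log2 scale numbered 606 (3.92% of tested genes), with 245 higher and 361 lower, and those that changed by over 1 numbered 49, with 27 higher and 22 lower. The share of called genes that were higher was 48.2%. It was 60.9% when libraries were scaled by their totals alone, so the balance of directions is not fixed by these data.

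**Figure D1:**
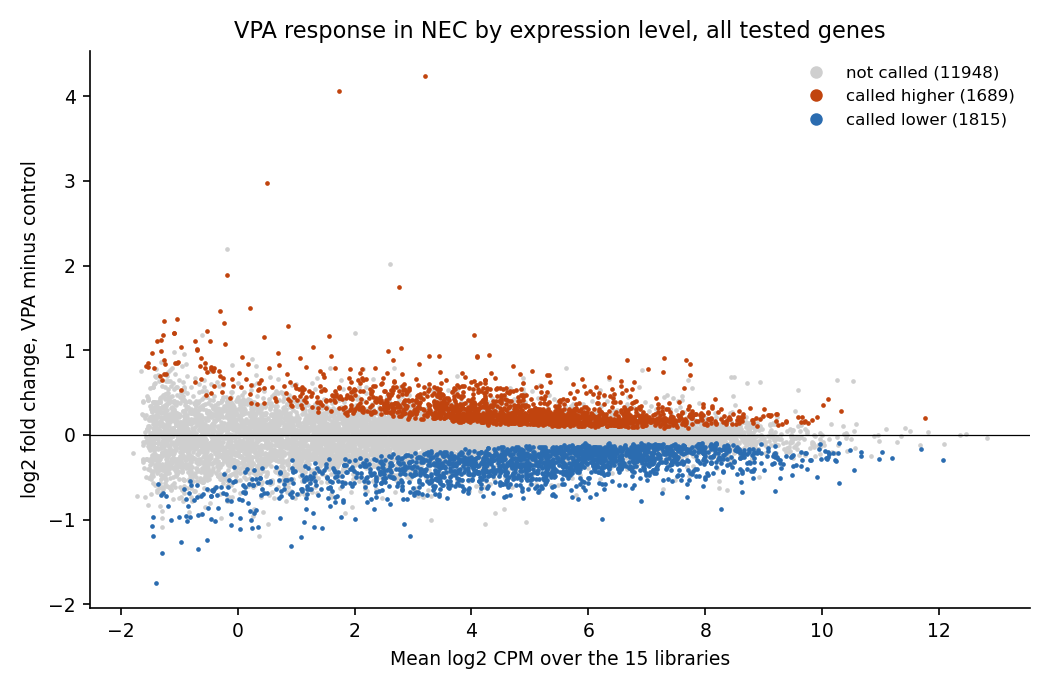
Log2 fold change of exposed against control NEC pups (vertical axis) by mean log2 CPM over the 15 libraries (horizontal axis), 1 point per tested gene. The 1689 genes called higher are red, the 1815 called lower are blue, and grey genes were not called; most called genes lie within 1 unit of the zero line.

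Without NEC control 3 more genes were called, and the added genes had small changes. The 7 exposed and 7 remaining control libraries gave 4638 called genes of 15391 tested (30.1%), 2324 higher (15.1%) and 2314 lower (15%). Both fits called 3415 genes, each in the same direction, which is 97.5% of the calls with the library and 73.6% of those without it. A further 1223 genes were called only without it, 681 higher and 542 lower. The median standard error of the log2 fold change fell from 0.084 to 0.069 when the library was left out. The median size over all tested genes was 0.14 with the library and 0.13 without it. The genes called only without it had a median size of 0.14 with it and 0.18 without it. With these genes added, the median among called genes was 0.24, and called genes past 0.5 on the log2 scale numbered 469. Those past 1 numbered 38, with 24 higher and 14 lower. Of the 603 called genes past 0.5 that were tested in both fits, 574 were still called without the library and 390 were still past 0.5. Among lower genes past 0.5, 278 were called without it against 361 with it.

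**Figure D2:**
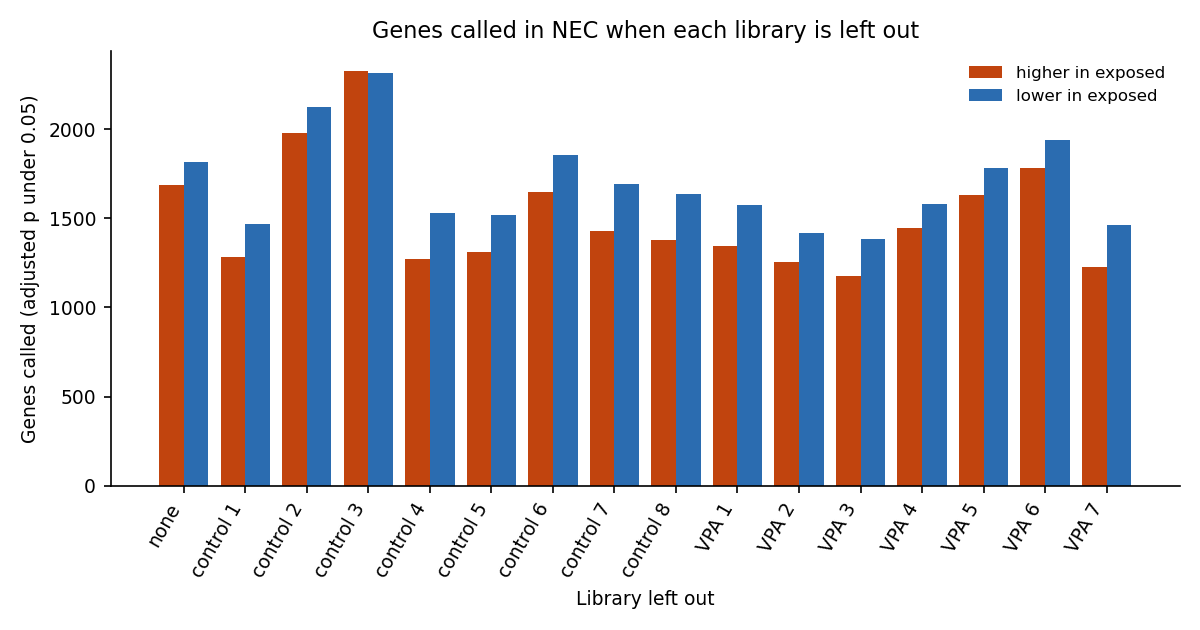
Number of genes called higher (red) and lower (blue) in exposed NEC pups (vertical axis) in the fit on all 15 libraries and with each library left out in turn (horizontal axis). Leaving out control 3 gave the highest counts, 2324 and 2314, and leaving out VPA 3 gave the lowest, 1179 and 1383.

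For a part of the called genes the groups did not overlap at all. In 300 genes (1.94% of tested genes) all 7 exposed pups lay above all 8 controls, and in 397 genes (2.57%) all 7 lay below. All but 1 gene in each direction were also called, so that 17.7% of the genes called higher and 21.8% of those called lower separated the groups completely. Most of these were small changes: 51 of the higher and 71 of the lower genes exceeded 0.5 on the log2 scale. Without NEC control 3 the counts were 498 (3.24%) and 564 (3.66%). No gene was at 0 in every pup of one group and above 0 in every pup of the other.

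Among the most abundant genes more were lower than higher. Of the 719 most abundant genes, at a log2 CPM averaging 8 or more, 241 were called (33.5%) and 167 of the 241 were lower in exposed pups. Without NEC control 3, 328 of these 719 were called and 204 were lower, so lower genes made up 69.3% of the calls with the library and 62.2% without it; upper-quartile scaling of all 15 libraries also gave 62.2%, and RLE scaling 70%. Scaling by library totals alone was not fitted by level. In each of these fits more calls were lower at 6 to 8 and more were higher at 4 to 6, but the size of the imbalance depended on the setting. At 6 to 8, 59.7% of 856 calls were lower, but 54.8% without NEC control 3 and 51.1% with upper-quartile scaling. At 4 to 6, 703 of 1308 calls were higher and 605 lower. There the counts were 654 and 618 with RLE scaling, 868 and 555 with upper-quartile scaling, and 989 and 794 without NEC control 3. With all 15 libraries, 395 calls were higher and 336 lower at 2 to 4, and 117 were higher and 140 lower at 0 to 2. Below a log2 CPM of 0, 111 of 1501 genes were called (7.40%), 55 higher and 56 lower, with a median size of 0.79. The median standard error there was 0.24 against 0.056 in the most abundant genes, so small changes were harder to detect in rare transcripts. How much of this came from depth was not tested. The share of all counts held by the 100 most abundant genes of each library was 15.2% ± 0.475 (SD, n = 7) in exposed pups and 15.6% ± 0.699 (SD, n = 8) in controls, which did not differ beyond the spread (p = 0.305 by exact permutation, two-sided, and 0.546 without NEC control 3).

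ENSRNOG00000029286 had the highest fold change among called genes that averaged 2 or more in log2 CPM over the 15 libraries. It reached that level only through the exposed pups, which averaged 18.6 CPM against 0.992 CPM in controls. It was under 2 CPM in every control and above 6 CPM in every exposed pup. Its level in the 8 controls had a lowest value of 0.661, a median of 0.906 and a highest value of 1.94 CPM. In the 7 exposed pups the lowest value was 6.11, the median 17.7 and the highest 32.2 CPM. The groups did not overlap, and the lowest exposed pup was above the highest control. Levels differed widely among exposed pups, with VPA 5 and VPA 6 at 6.11 and 7.17 CPM and VPA 2 and VPA 7 at 32.2 and 29.3 CPM. The log2 fold change was 4.24 ± 0.37 (SE, n = 7 and 8), or 18.9-fold, with the smallest p of all genes tested on the 15 libraries (edgeR adjusted p = 5.15e-05). Without NEC control 3 it was 4.24 ± 0.44 (edgeR adjusted p = 0.00012). In that fit the gene no longer had the smallest p, as the smallest edgeR adjusted p of any gene was 6.25e-07.

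ENSRNOG00000012686 had the next highest change, and it was carried by part of the exposed pups. This gene too reached the level for naming through the exposed pups, with means of 10.7 CPM there and 3.20 CPM in controls. Controls ranged from 1.64 through a median of 2.41 to 6.54 CPM. Exposed pups ranged from 1.92 through a median of 8.78 to 29.1 CPM. Only VPA 2, VPA 3, VPA 5 and VPA 6 lay above all controls, at 11.2, 8.78, 16.5 and 29.1 CPM, while VPA 1, VPA 4 and VPA 7 lay within the control range, at 1.92, 3.58 and 3.73 CPM. The log2 fold change was 1.75 ± 0.51 (SE, n = 7 and 8; edgeR adjusted p = 0.021) and 1.65 ± 0.58 without NEC control 3 (edgeR adjusted p = 0.045). The call was lost without VPA 6 (log2 fold change 1.26, edgeR adjusted p = 0.055), in the fit on all 30 libraries (edgeR adjusted p = 0.065), with no filter on low counts (edgeR adjusted p = 0.054) and with limma-voom quality weights (1.48, limma adjusted p = 0.058).

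ENSRNOG00000006237 had the lowest log2 fold change among called genes that averaged 2 or more in log2 CPM over the 15 libraries. Controls ranged from 6.03 through a median of 10.2 to 14.8 CPM, and exposed pups from 2.58 through a median of 4.51 to 6.86 CPM. The groups met in a single pair of pups: VPA 6 at 6.86 CPM lay above control 2 at 6.03 CPM, and the other 6 exposed pups lay below all controls. The log2 fold change was -1.20 ± 0.20 (SE, n = 7 and 8; edgeR adjusted p = 0.00128). Without NEC control 3, the highest control, it was -1.11 ± 0.19 (SE, edgeR adjusted p = 0.000927).

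ENSRNOG00000025121 was the next lowest, with more overlap. Controls ranged from 4.79 through a median of 9.84 to 17.6 CPM, and exposed pups from 1.83 through a median of 4.80 to 7.32 CPM. Controls 2, 6 and 7 lay within the exposed range, at 4.79, 5.81 and 6.39 CPM. The log2 fold change was -1.05 ± 0.32 (SE, n = 7 and 8; edgeR adjusted p = 0.027). Without NEC control 3, which held the highest value, it was -0.86 ± 0.31 (edgeR adjusted p = 0.046). The call was lost without VPA 1 (-0.95, edgeR adjusted p = 0.055), without VPA 3 (-0.94, edgeR adjusted p = 0.058) and without VPA 7 (-0.92, edgeR adjusted p = 0.052). It was also lost with NEC control 3 and VPA 7 both left out (-0.73, edgeR adjusted p = 0.0696) and with no filter on low counts (-1.05, edgeR adjusted p = 0.0546).

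**Figure D3:**
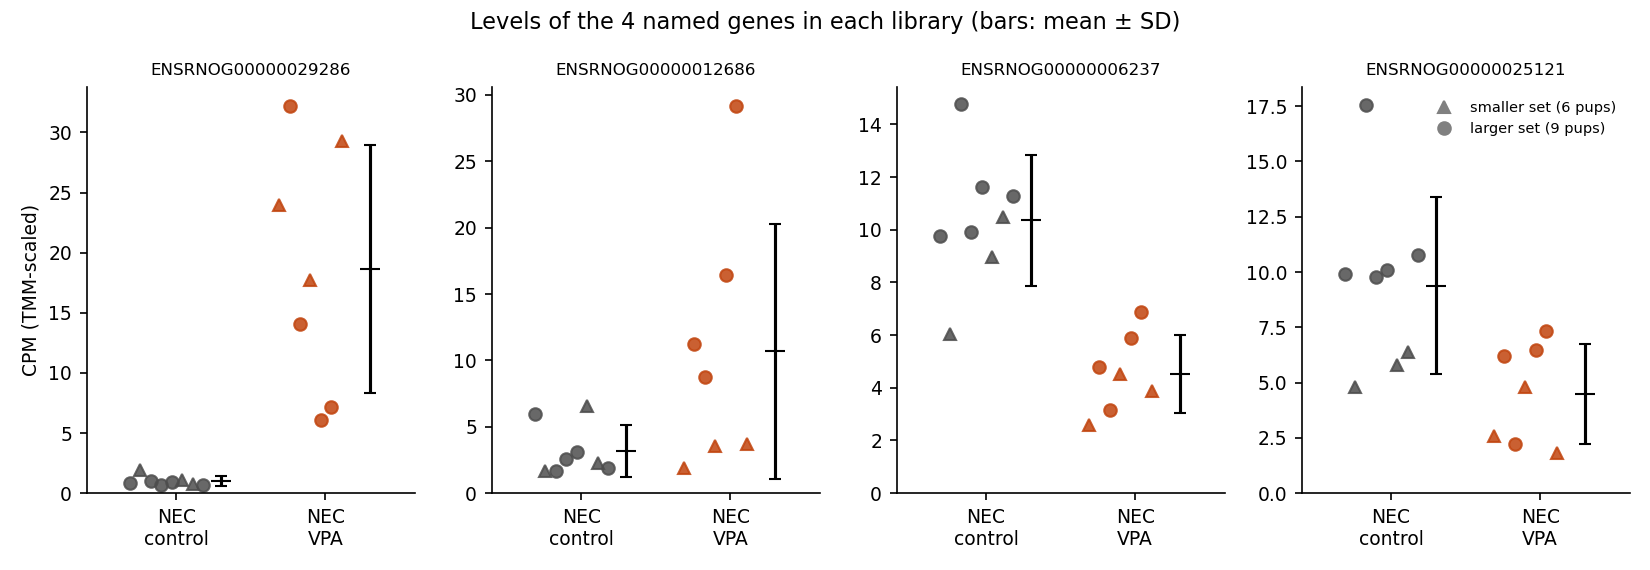
CPM (vertical axes, 1 panel per gene) of the 4 named genes in each of the 8 control (grey) and 7 exposed (red) NEC libraries, with the mean ± SD beside the points. Triangles and circles mark the smaller and larger set of pups described in the text; in ENSRNOG00000029286 no exposed pup overlaps the controls, while in ENSRNOG00000012686 the 4 exposed pups above the controls are all circles.

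The NEC pups fell into 2 sets by 8 genes that were low in some pups and higher in the rest. Of these genes, 2 were high in 6 pups (3 controls and 3 exposed) and 6 were high in the other 9 (5 controls and 4 exposed). Over the 8 genes the low side reached at most 0.922 CPM and the high side ran from 0.765 to 94.5 CPM. Low and high are thus relative to each gene, and some high values were near the floor. All 8 genes gave the same division. A gene was counted here when the largest gap in its log2(CPM + 0.1) values exceeded 2.5 with at least 3 pups on each side. The division was read from the data and what the sets stand for was not determined. Exposure was spread over both sets. With the set as a term in the model 3761 genes were called for exposure (24.3%), and these held 3467 (98.9%) of the 3504 genes called without it.

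In 605 genes (3.92% of tested genes) the exposed pups of both sets lay above all controls of the same set, and in 762 genes (4.93%) they lay below. These counts exceed those over all pups partly by construction, since fewer pairs of pups must be apart. Fitted alone, the larger set gave 1150 called genes (7.42%) and the smaller set, with 3 pups against 3, gave 3 (0.0194%; 2232 of 15441 at an unadjusted edgeR p under 0.05). ENSRNOG00000006237 was without overlap in both sets. In the smaller set its controls were at 6.03, 8.98 and 10.5 CPM and its exposed pups at 2.58, 3.88 and 4.51 CPM. In the larger set its 5 controls ranged from 9.75 to 14.8 CPM and its 4 exposed pups from 3.16 to 6.86 CPM. The edgeR adjusted p was 0.0224 in the larger set alone and 0.164 in the smaller set alone. For ENSRNOG00000025121 the controls themselves differed by set, at 4.79 to 6.39 CPM in the smaller set and 9.76 to 17.6 CPM in the larger, and the exposed pups of the larger set, at 2.23 to 7.32 CPM, were all below their own controls. In the smaller set the exposed pups were at 1.83, 2.58 and 4.80 CPM, and VPA 4 overlapped control 2. The gene was not called in the larger set alone (-1.06, edgeR adjusted p = 0.0627) or in the smaller set alone (-0.88, edgeR adjusted p = 0.261). With the set in the model its log2 fold change was -0.99 ± 0.24 (SE, edgeR adjusted p = 0.00725).

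ENSRNOG00000012686 had different values in the 2 sets, but that difference did not pass the test over all genes. In the larger set the 4 exposed pups were at 8.78 to 29.1 CPM and the 5 controls at 1.66 to 5.96 CPM, without overlap. In the smaller set the 3 exposed pups were at 1.92 to 3.73 CPM and the 3 controls at 1.64 to 6.54 CPM. The log2 fold change was 2.44 ± 0.43 (SE) in the larger set and -0.18 ± 0.53 (SE) in the smaller. The difference between them, -2.62 ± 0.74 (SE), had an unadjusted edgeR p of 0.00308 but an adjusted p of 1 over the 15881 genes tested. No gene passed that test of a different response in the 2 sets (0 called by edgeR). Of the 15881 genes, 184 had an unadjusted edgeR p under 0.05. Without NEC control 3 it was 360 of 15828, again with 0 called. Both counts are below the share of 0.05 expected by chance with no difference at all. With so few small p-values the test cannot decide whether the sets responded alike, for ENSRNOG00000012686 too.

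How far each pup followed the group response was measured with genes chosen without it. Each library was left out in turn, genes were called on the other 14, and the left-out pup was scored by its mean log2 CPM relative to the other controls, genes called higher minus genes called lower. A pup like the average control scores near 0. Controls scored from -0.10 to 0.37, with a median of 0.031, and exposed pups from 0.36 to 0.86, with a median of 0.67. In 6 of 7 exposed pups the score was above that of all controls. The exception was VPA 6 at 0.36, just under control 2 at 0.37. The controls of the smaller set scored 0.14 to 0.37 and those of the larger set -0.10 to 0.073, so the groups did not overlap within either set, with 3 of 3 and 4 of 4 exposed pups above their own controls. NEC control 3 scored -0.091, within the range of the other controls of its set. VPA 5 and VPA 6, which had the lowest levels of ENSRNOG00000029286 among exposed pups, also had the lowest scores, 0.43 and 0.36. The scores are a description, since each fit shares 13 of its 14 libraries with the next.

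**Figure D4:**
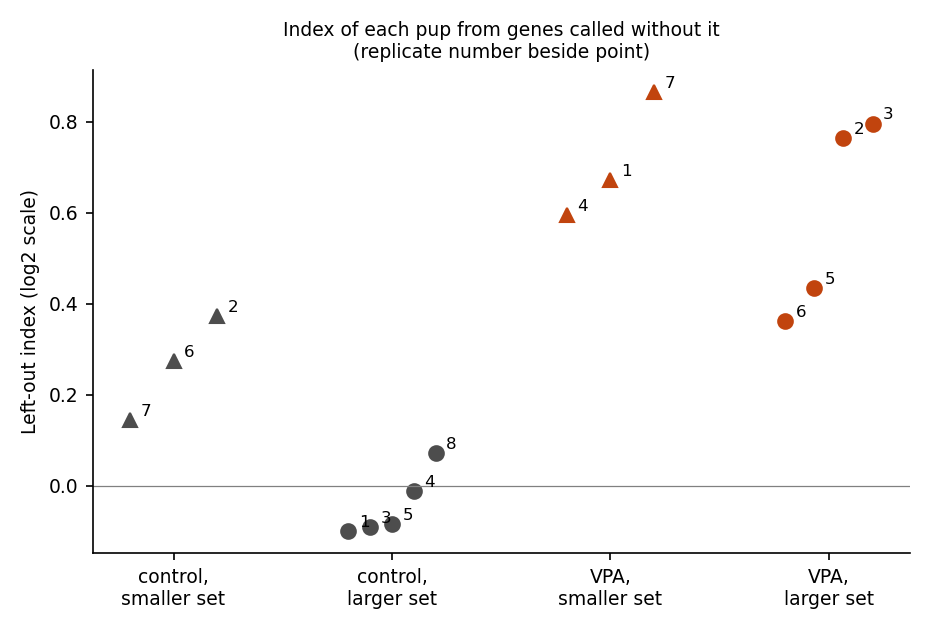
Score of each NEC pup (vertical axis, log2 scale) from genes called without that pup, by exposure and set of pups (horizontal axis), with replicate numbers beside the points. Controls lie between -0.10 and 0.37 and exposed pups between 0.36 and 0.86, and within each set all exposed pups lie above all controls.

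The main axes of variation among NEC pups followed exposure only in part. The first principal component of log2 CPM held 37.9% of the variance, and NEC control 3, at -64.9, was far below the other controls at -14.4 to 19.1. The sign of a component is arbitrary, and each was turned so that exposed pups had the higher mean. Only the size of a difference is therefore a result. Exposed pups were higher on this component by 23.7 units (two-sided exact permutation p = 0.0356, or 0.0534 adjusted over 9 tests of components). On component 2, with 16.0% of the variance, the difference was 12.1 units (exact p = 0.146, adjusted p = 0.188). Component 3, with 10.4% of the variance, was higher in exposed pups by 16.9 units (exact p = 0.00373, adjusted p = 0.0112). There 6 of 7 exposed pups lay above all controls, and VPA 7 at -11.9 was the exception. With the components recomputed without NEC control 3, exposed pups were higher by 21.9 units on the first (exact p = 0.0256, adjusted p = 0.0472) and by 19.1 units on the second (exact p = 0.000583, adjusted p = 0.00524), where all 7 exposed pups, at -4.42 to 24.8, lay above all 7 controls, at -25.9 to -6.22. With VPA 7 left out as well, the differences were 19.8 units (exact p = 0.0262, adjusted p = 0.0472) and 18.8 units (exact p = 0.0035, adjusted p = 0.0112). The component tests were added after seeing the plot.

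**Figure D5:**
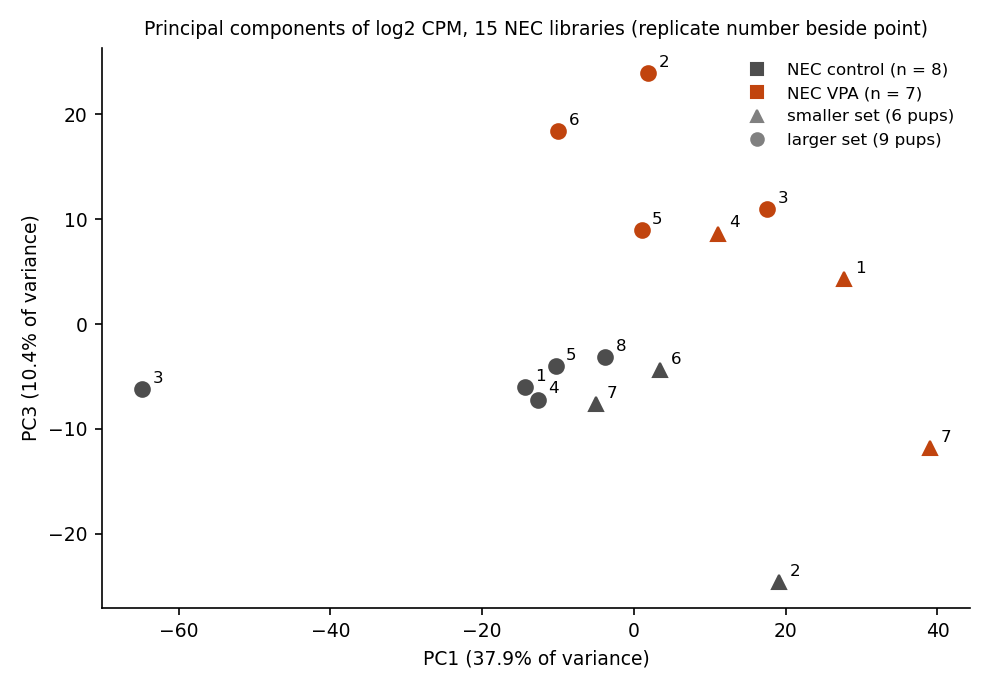
Component 1 (horizontal axis) and component 3 (vertical axis) from the principal component analysis of log2 CPM over the 15 NEC libraries, in units of the component scores, with replicate numbers beside the points. Control 3 lies apart at -64.9 on component 1, and 6 of the 7 exposed pups lie above all controls on component 3.

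Whether this response was particular to NEC was tested as a difference between strains over all 30 libraries. No gene passed: 0 of 15885 were called by edgeR (0%), the smallest adjusted p was 0.303, and 1278 had an unadjusted p under 0.05. Without NEC control 3 the count was again 0, with 1306 of 15869 at an unadjusted edgeR p under 0.05, and DESeq2 called 2 genes on all libraries. The counts of 1278 and 1306 are above the share of 0.05 expected by chance with no difference at all. Whether that excess reflects a difference between strains was not tested. ENSRNOG00000029286 was at 0.328 to 3.65 CPM in GAERS controls and 3.60 to 54.8 CPM in exposed GAERS pups, with a median of 5.30 CPM. GAERS VPA 4 alone was at 54.8 CPM and the other exposed pups were at 3.60 to 11.4 CPM. The lowest of them lay just under the highest control. The change was 3.46 ± 0.58 (SE) in log2 units, and the strains differed by -0.77 ± 0.82 (SE, edgeR adjusted p = 0.77). Both values include GAERS VPA 4, and a fit without that pup was not run. ENSRNOG00000006237 fell in GAERS by 0.80 ± 0.22 (SE) on the log2 scale (edgeR adjusted p = 0.033), and the strains differed by 0.40 ± 0.31 (SE, edgeR adjusted p = 0.684). ENSRNOG00000012686 ranged from 1.60 to 26.7 CPM in GAERS controls and from 2.03 to 27.4 CPM in exposed GAERS pups. High levels occurred without exposure: GAERS controls 2, 5 and 6 were at 24.7, 26.7 and 21.3 CPM, and the other GAERS controls at 1.60 to 5.26 CPM. Among exposed GAERS pups, VPA 1 and VPA 6 were at 12.1 and 27.4 CPM and the others at 2.03 to 4.89 CPM. The change there was -0.51 ± 0.67 (SE) in log2 units, and the difference between strains, -2.25 ± 0.96 (SE), did not pass the test (edgeR adjusted p = 0.607). For ENSRNOG00000025121 the GAERS value was -0.28 ± 0.33 (SE) and the difference 0.78 ± 0.47 (SE, edgeR adjusted p = 0.629). A p that misses the threshold does not show that the strains responded alike.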

How the data were processed

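Total RNA was taken from brain tissue of 30 pups, and a stranded total RNA library kit is named, per the labels. The authors deposited a table of unnormalized read counts by Ensembl identifier. Per the submitters' processing notes, the tools were FastQC and STAR 2.5 and the build was Rnor_6.0, also written rn6. How reads were assigned to genes (software, gene models, strand) is not given in the sources used here. Overlapping, antisense or near-identical genes may therefore share reads. Groups follow the labels, and replicate numbers follow the order of deposit.

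The 15 NEC libraries were analysed alone in R 4.3.3 with edgeR 4.0.16: filterByExpr (minimum count 10, minimum total 15), TMM scaling, a robust quasi-likelihood fit of 2 group means, and Benjamini-Hochberg adjustment over all tested genes. TMM assumes that most genes do not change. The tested genes held 99.94% to 99.96% of each library's counts. Standard errors were derived from the F statistic. CPM use TMM-scaled totals, and log2 CPM a prior count of 2. The strain difference was an interaction over 30 libraries. Named genes are the 2 highest and 2 lowest log2 fold changes among 3080 genes called with the same sign with and without NEC control 3 that averaged 2 or more in log2 CPM. The lowest chi-square per degree of freedom between replicates was 5.15, so all libraries were kept as separate samples. The fits were also run on simulated counts in which a small share of genes was changed, evenly in both directions. That run does not test scaling under a broad change, NEC control 3 or litters.

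None of the 47357 rows of the RefSeq table (GRCr8) carries an Ensembl identifier, so 48 gene and cell marker lists and a covariate for sex were not run. Alternatives used DESeq2 1.42.0, limma 3.58.1 and sva 3.50.0. Members, lists and tests were chosen with earlier results of these data known. The division by 8 genes, the fits within sets, the joint omission of NEC control 3 and VPA 7, the levels, the scores and the component tests were added after seeing the data.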

Additional observations from a re-analysis of the deposited data

Results flagged for a closer look

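A gap test for a single extreme pup was run on 28 groups of values, 1 measure in 1 NEC group each. It picked out 13, where chance gives about 1.4 (1 in 20). The measures overlap and reuse the same pups, so these are not 13 independent results.

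NEC control 3 was far from the other 7 controls in its TMM factor (0.920, others 0.984 to 1.01), in the percentage of counts from the top 100 genes (17.3%, against 15.1% to 15.6%) and from the top 500 genes (37.2%, against 33.6% to 34.4%). It was also apart in its median correlation with the group (0.974), on the first component (-64.9), on the second component (30.5, others -22.0 to -0.625), in the share of genes in which it was outermost (59.7%) and in ENSRNOG00000025121 (17.6 CPM, others 4.79 to 10.8 CPM).

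NEC control 7 was the deepest library, with 56568656 counts against 30713506 to 37383067 in the other controls. NEC control 2 lay apart on the third component (-24.6, others -7.66 to -3.16) and in ENSRNOG00000029286 (1.94 CPM, others 0.661 to 1.11 CPM). Among exposed pups, VPA 7 had the lowest median correlation with its group (0.985, others 0.990 to 0.993) and lay apart on the second component (33.7, others -4.44 to 6.56).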

How the results depend on the processing

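The count of 3504 genes was within 1.5 times under RLE, upper-quartile and library size scaling, both other filters, DESeq2, all 30 libraries, and covariates for total count, library number or set. Leaving out each library gave 2562 (without VPA 3) to 4638 (without NEC control 3) genes, 1179 to 2324 higher and 1383 to 2314 lower. It moved to 5511 genes (2750 higher, 2761 lower) with limma-voom quality weights, to 5915 (2909 higher, 3006 lower) with 2 surrogate variables, and to 606 (245 higher, 361 lower) with a size over 0.5. The cause was not tested for the first 2. With fewer pups, the larger set alone gave 1150 genes (509 higher, 641 lower), or 3915 without NEC control 3, and the smaller set alone gave 3, ENSRNOG00000029286 among them (3 higher and 0 lower by edgeR, with 966 and 1266 at an unadjusted p under 0.05). In the smaller set ENSRNOG00000012686 turned to -0.18. DESeq2 gave 2 genes for the strain difference against 0, and the cause was not tested. ENSRNOG00000029286 and ENSRNOG00000006237 were called under all 11 other settings of scaling, filter, tool, covariate and samples, left-out libraries and the division by set apart, ENSRNOG00000012686 in 8 and ENSRNOG00000025121 in 10. No paired analysis was possible because neither a litter nor a replicate number shared by pups is labelled. The sex covariate and gene lists were not run.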

Other observations

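The spread between pups was compared in exposed and control pups. The median over tested genes of the SD of log2 CPM was 0.18 in the 8 controls, 0.12 in the 7 controls without NEC control 3, 0.14 in the 7 exposed pups and 0.13 in the 6 exposed pups without VPA 7. The SD was larger in exposed pups in 29.6% of genes with all libraries, in 62.2% without NEC control 3 and in 54.5% without both libraries. The direction of this comparison thus turned on NEC control 3, and the differences were not tested.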
